A study of Mus musculus with 6 samples.

Results

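The genes described here act in antigen presentation, the interferon response, cytokine and chemokine signalling and the Jak and Stat pathway, and they include Toll-like receptors and genes with CD numbers. They were measured by microarray in RNA from the pancreas of mouse embryos. Members were all probes with 1 gene symbol in the platform annotation that starts with H2-, Ifi, Ifn, Socs, Cxc, Csf or Tlr, or with Irf, Il, Stat, Ccl or Ccr and a digit, or that is Jak1, Jak2, Jak3, Ptprc or Cd with a number and any letters after it, with Cd53 left out. The rule names symbols, was written with earlier results of these data known, and took 134 of 21888 probes, for 93 genes. Of these, 131 probes had values on at least 4 arrays and were tested, and each of the 93 genes kept a tested probe. The remaining 3 probes, of Il18bp, Cd9 and Socs4, had values on 3 arrays. Some names mislead: Cd2ap, Cd2bp2 and Cd3eap encode proteins inside the cell, and Il4i1 is an enzyme.

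On each of 6 arrays, RNA labelled Sox4-/- (homozygous knockout embryos, embryonic day 12.5, channel 2) was set against RNA labelled wild type (littermates of the same day, channel 1). Sox4 encodes a transcription factor, and the knockout line is a published one. The labels name neither strain nor sex. Per the label of arrays 1 and 2, pancreases were pooled into 2 groups before extraction and the RNA was amplified, so the arrays may be repeats of 1 pair of pools, and p-values measure only how far arrays differ from each other, which may be technical. Because each RNA kept its channel on every array, a probe's channel bias and its RNA difference cannot be told apart. Each value is a log2 ratio read as knockout over wild type, a direction that is likely from the channel order and the titles but not stated. The other way round, every sign below would turn, and the shares above and under 0 would change places. The table holds ratios and no intensities, so levels, dim spots and the tissue label could not be checked, and fewer cells of a type and less RNA per cell cannot be told apart.

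MHC molecules carry peptides to the cell surface. Interferons and many interleukins act through receptors that switch on Jak kinases, which activate Stat transcription factors, while Socs proteins damp the signal. Chemokines guide moving cells, and Cxcl12 signals through the receptor Cxcr4. Many genes with CD names are also used by epithelium, vessels and mesenchyme.

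Stat3, Cxcl12, Ifitm3, Ifih1, Il10rb, Cd36, Cd96, Cd164 and Cd2ap were lower in the RNA labelled knockout, and Cd24a and Ifitm5 were higher. These 11 genes had 14 of the 131 tested probes past an adjusted p of 0.05 (limma, Benjamini-Hochberg over all 21247 tested probes), 12 under 0 and 2 above 0. That was 10.7% of the members, against 5.49% of all tested probes. Under 0 the share was 9.16%, against 3.53%, and above 0 it was 1.53%, against 1.96%. Cd53, which the rule leaves out, passed above 0. With it, 15 of 132 probes passed, 9.09% under 0 and 2.27% above 0, a count added after seeing the data, so the share above 0 then lay over the background and not under it. By gene the share was 11.8% of 93, against 8.21% of 10818 genes, with 9.68% against 5.0% under 0 and 2.15% against 3.25% above 0. The mean log2 changes were between 0.45 and 0.79 in size, and all 14 probes had the same sign on all 6 arrays. Ratios that are quotients of small whole numbers can come from very dim spots. They made up most values of 10 member probes (7.63%, against 12.0% of all), none of them among the 14.

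**Figure D1:**
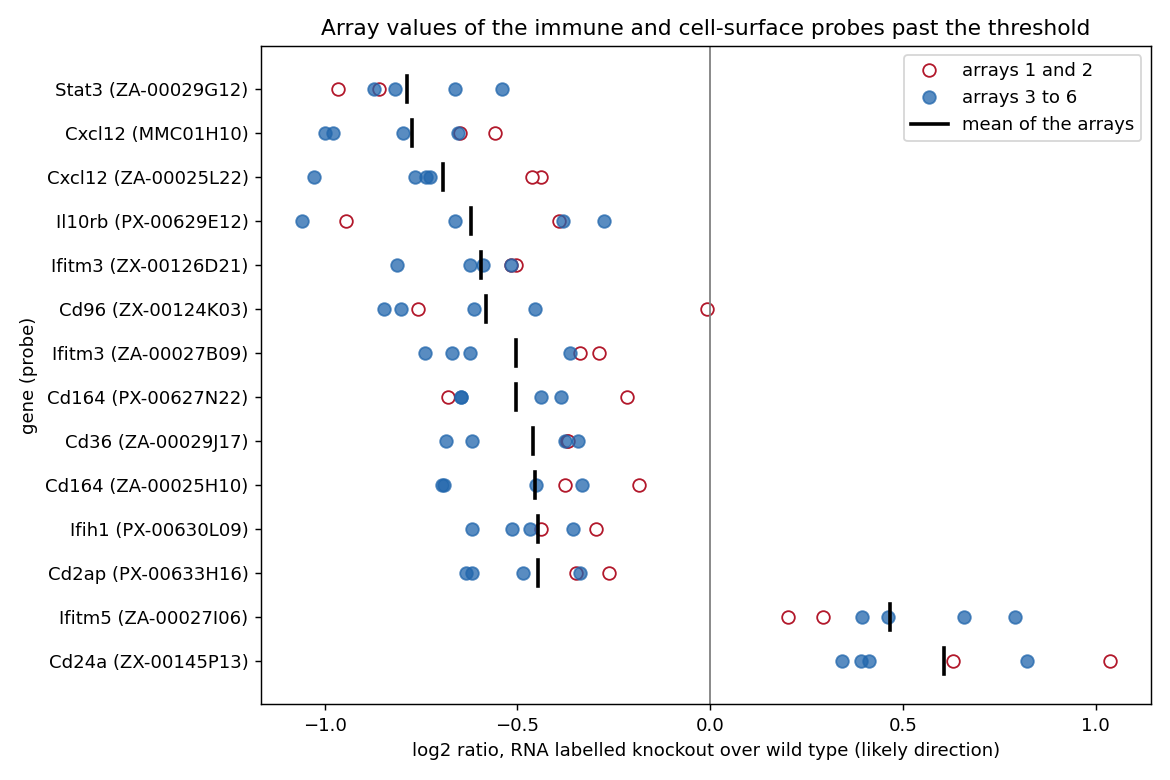
Log2 ratio (x axis) of each immune and cell-surface probe past the threshold (y axis) on the 6 arrays, with arrays 1 and 2 as open circles, arrays 3 to 6 as filled circles and the mean as a bar. Means run from -0.79 for Stat3 to 0.61 for Cd24a, and the Cd96 value of array 2 lies next to 0.

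The set as a whole lay around 0. Its median was 0.0073, against 0.026 for all tested probes, with 68 probes above 0 and 63 under it. On single arrays its median ran from -0.14 on array 2 to 0.010 on array 4. At an unadjusted p under 0.05 there were 45 member probes (34.4%, against 27.6%), of which 28 were under 0 (21.4%, against 14.0%) and 17 above 0 (13.0%, against 13.6%). The sign was the same on every measured array at 30 probes (22.9%, against 22.4%), 26 under 0 (19.8%, against 12.3%) and 4 above 0 (3.05%, against 10.2%). These shares are descriptions, with no test of the set. Without median centring the median of all probes lay 0.10 higher. Then 14 member probes passed (background 5.92%), 10 under 0 (1.92%) and 4 above 0 (4.0%), so 28.6% of the passing members were above 0, against 14.3% with centring. Of all passing probes, 67.5% were above 0 without centring, against 35.7% with it.

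**Figure D2:**
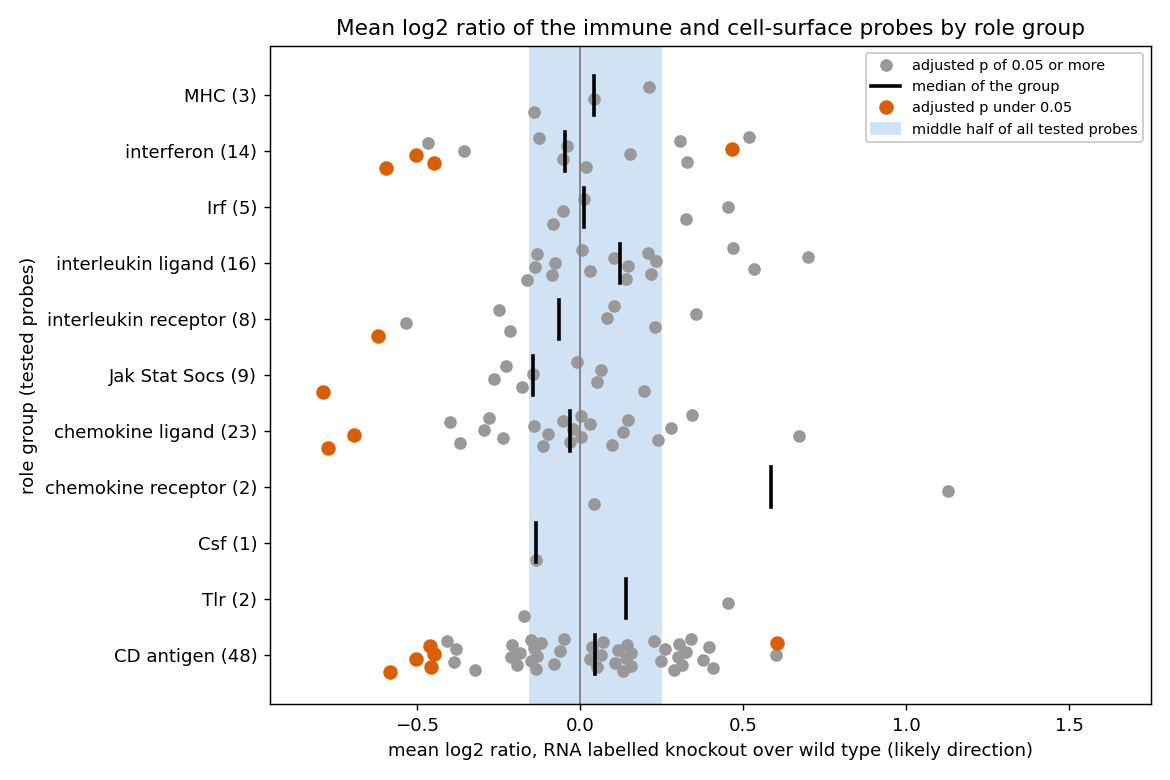
Mean log2 ratio (x axis) of the 131 tested probes by role group (y axis), with probes past the threshold in orange, a bar at the median of each group and a band from the lower to the upper quartile of all tested probes. Orange points stand in 5 of the 11 groups, and the MHC, Irf, interleukin ligand, chemokine receptor, Csf and Tlr groups have none.

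None of the 3 MHC probes passed. H2-Aa, a class II chain, ran from -0.27 to 0.070 with a mean of -0.14 ± 0.12 (SD, n = 6 here and below unless stated; adjusted p 0.244). H2-Oa, a chain of a class II helper molecule, averaged 0.21 ± 0.71, and the class I gene H2-Q8 ran from -1.49 to 2.80. Most ratios of the H2-Q8 probe were quotients of small whole numbers. Of 21 genes of antigen processing outside the set, 9 were measured. Of these, 1 passed under 0 (background 5.0% of genes) and none above 0 (3.25%), with a list median of -0.072. That gene was B2m, the light chain of class I molecules, which passed at both of its probes. The probe with the smaller p ran from -0.93 to -0.32, all under 0, with a median of -0.49 and a mean of -0.54 ± 0.22 (adjusted p 0.0351), and the other probe averaged -0.43.

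Among interferon genes, 3 of 14 probes passed under 0 (background 3.53%) and 1 above 0 (1.96%), with a group median of -0.046. Ifitm3, a membrane protein that hinders the entry of viruses, passed at 2 of 3 probes. Probe ZX-00126D21 ran from -0.81 to -0.50 with a median of -0.55 and a mean of -0.59 ± 0.12 (adjusted p 0.0207). Probe ZA-00027B09 ran from -0.74 to -0.29 with a median of -0.49 and a mean of -0.50 ± 0.20 (adjusted p 0.0356). No array reached 0 at either, and array 1 was closest to it at both. The third probe averaged -0.47 ± 0.30 and did not pass (adjusted p 0.0669). Its neighbour on chromosome 7, Ifitm1, named after its value was seen, averaged -0.36 ± 0.17 with all 6 arrays under 0 (adjusted p 0.057).

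Ifitm5, a relative on the same chromosome known from bone-forming cells, was higher. Its values ran from 0.20 to 0.79 with a median of 0.43, so no array was under 0. The mean was 0.47 ± 0.22, a 1.38-fold higher ratio (adjusted p 0.0456). Ifitm7, on chromosome 16 and named after its value was seen, averaged 0.52 ± 0.56 (adjusted p 0.16). Members of this family resemble each other in sequence, and binding of one gene's RNA to another's probe was not tested.

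Ifih1, the sensor MDA5 for viral double-stranded RNA, was lower. It ran from -0.62 to -0.30 with a median of -0.45, every array under 0. The mean was -0.45 ± 0.11 (adjusted p 0.0302). Ifnar2, a chain of the type I interferon receptor, averaged 0.15 ± 0.46 and 0.31 ± 0.69 at its 2 probes (adjusted p 0.59 and 0.449). Array 2 was the highest at both, and without it they averaged -0.020 and 0.067. Most ratios of the second were quotients of small whole numbers. Of 33 other genes of the interferon response, 10 were measured, 2 passed under 0 (background 5.0% of genes) and none above 0 (3.25%). The list median was -0.20 and lay under 0 on every array, from -0.28 to -0.14. Eif2ak2, the kinase PKR that halts translation when it meets double-stranded RNA, averaged -0.42 ± 0.15 (adjusted p 0.0373). Isg20, an exonuclease, averaged -0.86 ± 0.32 at 1 of 4 probes (adjusted p 0.0294), while another of its probes averaged 0.22.

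None of the 5 probes of Irf factors, which switch interferon genes on, passed. Irf8, a factor of myeloid cells, had the smallest p, with a mean of 0.32 ± 0.24 (adjusted p 0.104), and without centring it passed at 0.43 (adjusted p 0.0428). Irf3 ran from -1.88 to 1.15 with a mean of 0.011 ± 1.20 (n = 5), so its sign is not settled. Most of its ratios were quotients of small whole numbers.

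None of the 16 probes of interleukin ligands and their binding proteins passed in limma (background 5.49%). At an unadjusted p under 0.05 there was 1 (27.6% of all tested probes). That was a probe of Il18bp, which traps interleukin 18, at 0.70 ± 0.74 (n = 5, adjusted p 0.176). Without array 2 it averaged 0.45, and with the ceiling value of array 6 kept 3.32, while the other 3 tested probes of the gene averaged from -0.076 to 0.21. Of the 8 interleukin receptor probes, 1 passed (background 5.49%). Il10rb, a chain shared by the receptors for interleukin 10 and related cytokines, ran from -1.06 to -0.28 with a median of -0.53. Arrays 5 and 2 were the lowest and array 4 the closest to 0. The mean was -0.62 ± 0.33 (adjusted p 0.0448), and without centring it was -0.52 (adjusted p 0.0523). Il6st, the signalling chain gp130 of the interleukin 6 family, averaged -0.21 ± 0.26 (adjusted p 0.247), with -0.33 on arrays 3 to 6 and 0.025 on arrays 1 and 2.

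Stat3, the factor through which the interleukin 6 family acts, had the mean furthest under 0 of all members. Its log2 ratios on arrays 1 to 6 were -0.86, -0.97, -0.87, -0.54, -0.82 and -0.66. Every array lay well under 0, array 4 the closest to it. The mean was -0.79 ± 0.16 (95% interval -0.97 to -0.60), a 1.72-fold lower ratio (adjusted p 0.0156). It was the member that also passed a limma test against a log2 change of 0.2 (adjusted p 0.0471), which 0.174% of all probes passed.

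Genes of Jak kinases had no member probe and were not analysed here. The other Stat and Socs probes did not pass, and the median of the 9 was -0.14. Stat5b, which carries growth hormone and prolactin signals, averaged -0.26 ± 0.09 and -0.14 ± 0.09 (adjusted p 0.0644 and 0.204). Stat2, a factor of the interferon response, averaged -0.18 ± 0.06 (adjusted p 0.124). All 6 arrays were under 0 at these 3 probes. The Socs probes averaged from -0.23 for Socs5 to 0.20 for a probe of Socs6. Of 35 other genes of cytokine receptors and Jak and Stat signalling, 10 were measured and none passed in limma (background 8.21% of genes). The smallest p was that of the adaptor Sh2b2, at 0.26 ± 0.08 (adjusted p 0.0614).

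Among chemokine ligands, 2 of 23 probes passed (background 5.49%), both of Cxcl12, the stromal cell-derived factor, and the group median was -0.030. Probe MMC01H10 ran from -0.999 to -0.56 with a median of -0.73 and a mean of -0.77 ± 0.18, a 1.71-fold lower ratio (adjusted p 0.0199). Probe ZA-00025L22 ran from -1.03 to -0.44 with a median of -0.73 and a mean of -0.69 ± 0.22, a 1.62-fold lower ratio (adjusted p 0.0259). All arrays were under 0 at both probes, with arrays 1 and 2 closest to 0 at both. The third probe, MMC01H09, is annotated from another sequence record and averaged -0.14 ± 0.24, with values from -0.41 to 0.10 (adjusted p 0.392), so the probes differed in size. With its probes averaged, the gene stood at -0.54 (adjusted p 0.0309).

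The next 3 ligands are named after their values were seen. Ccl11, an attractant of eosinophils, averaged -0.37 ± 0.18 and -0.29 ± 0.15, all arrays under 0 at both probes (adjusted p 0.0549 and 0.073). Ccl6 averaged -0.28 and -0.23. Ccl8, an attractant of monocytes, averaged 0.67 ± 0.54 (adjusted p 0.0905). Neither chemokine receptor probe passed. Cxcr4, the receptor of Cxcl12, ran from -0.022 to 3.77 with a median of 0.81 and a mean of 1.13 ± 1.34 (adjusted p 0.178). Array 3 was far above the others, and without it the mean was 0.60.

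Csf1r, the receptor that macrophages need, ran from -2.005 to 2.47, with all ratios quotients of small whole numbers, and gave no usable direction. Tlr4, the receptor for bacterial lipopolysaccharide, averaged -0.17 ± 0.17 (adjusted p 0.228). Of 30 other genes of Toll-like receptor and NF-kB signalling, 13 were measured. Of these, 1 passed above 0 (background 3.25% of genes) and none under 0 (5.0%). That was Irak3, an inhibitor of the pathway, at 0.61 ± 0.13 (n = 5, adjusted p 0.0302).

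Among genes with CD names, 5 of 48 probes passed under 0 (background 3.53%) and 1 above 0 (1.96%), and the group median was 0.046. Cd24a, a small anchored surface protein of many immature cells, was the higher one. It ran from 0.34 to 1.04 with a median of 0.52, highest on arrays 2 and 4. The mean was 0.61 ± 0.28, a 1.52-fold higher ratio (adjusted p 0.0385).

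Cd164, a sialomucin of progenitor and stromal cells, passed at 2 of 4 probes. Probe PX-00627N22 ran from -0.68 to -0.22 with a median of -0.54 and a mean of -0.50 ± 0.19 (adjusted p 0.0345). Probe ZA-00025H10 ran from -0.70 to -0.18 with a median of -0.41 and a mean of -0.46 ± 0.20 (adjusted p 0.043). Array 1 was closest to 0 at both. The other probes averaged -0.41 ± 0.24 (adjusted p 0.0649) and 0.053 ± 0.19, so 1 of the 4 stood apart.

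Cd36, a receptor for fatty acids and thrombospondin, ran from -0.69 to -0.34 with a median of -0.37 and a mean of -0.46 ± 0.15 (adjusted p 0.0341). Arrays 5 and 6 were lower than the other 4, which lay close together. Cd96, a receptor of T and natural killer cells, ran from -0.85 to -0.0085 with a median of -0.69 and a mean of -0.58 ± 0.31 (adjusted p 0.0472), and array 2 lay next to 0. Without centring its mean was -0.48 (adjusted p 0.0718). Cd2ap, an adaptor between membrane proteins and actin, ran from -0.63 to -0.26 with a median of -0.42 and a mean of -0.45 ± 0.16 (adjusted p 0.0353). Among those that did not pass, the tetraspanin Cd9 averaged -0.32 ± 0.18 (adjusted p 0.0739), and it passed with the set of arrays as a term (adjusted p 0.0482) and with array weights (adjusted p 0.0462). The adhesion protein Cd99 averaged from 0.29 to 0.40 at its 3 probes, 0.33 ± 0.15 at the one with the smallest p (adjusted p 0.0582), and that probe passed without centring (adjusted p 0.0391). Most ratios of that probe were quotients of small whole numbers.

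Of the 24 genes with more than 1 tested probe, 13 had all of them on 1 side of 0 and 11 had probes on both sides. The split over all genes was not computed, so these counts have no background. Cxcl12, Ifitm3 and Cd164 were the genes of this kind with a probe past the threshold, and each had 2. Among the rest, the 5 probes of Cxcl14 averaged from -0.40 to 0.24, but most ratios of the 2 outermost probes were quotients of small whole numbers, and the other 3 averaged from -0.10 to 0.15.

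**Figure D3:**
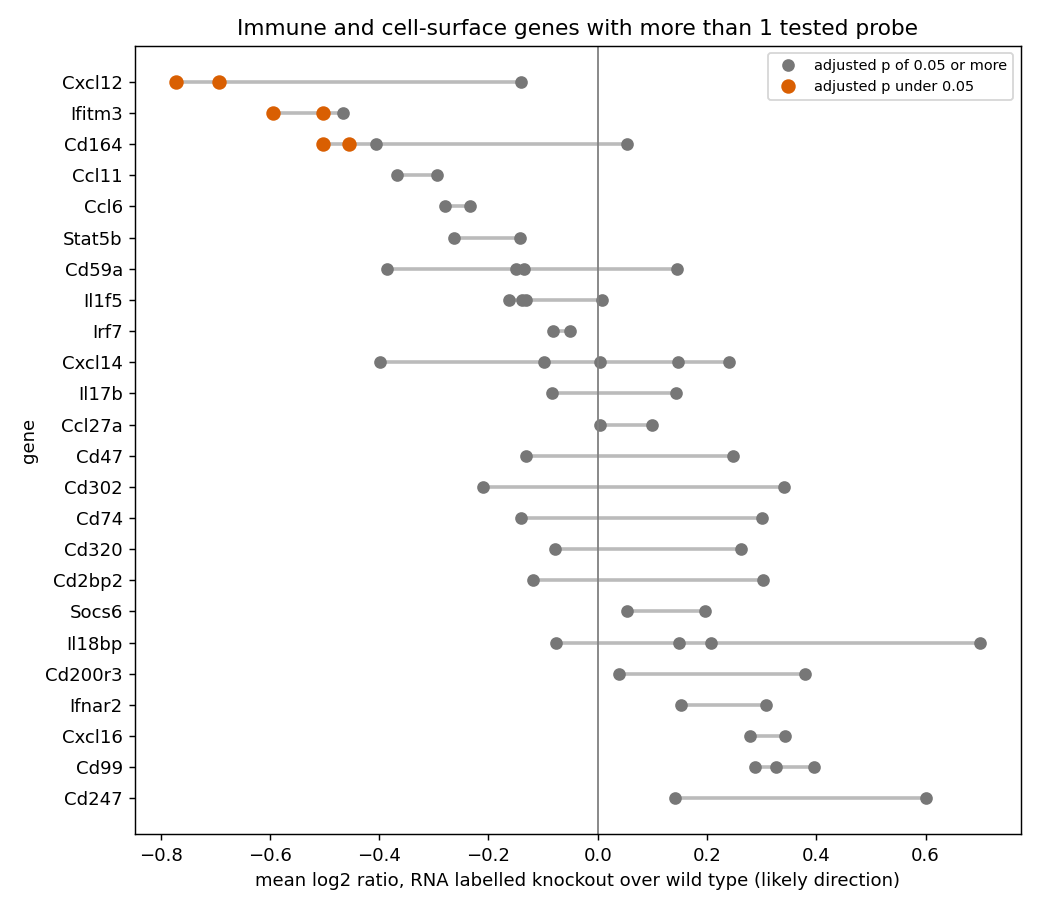
Mean log2 ratio (x axis) of every tested probe of the 24 genes with more than 1 (y axis), joined by a line for each gene, with probes past the threshold in orange. The probes of Ifitm3 lie from -0.59 to -0.47, and those of Cxcl12 from -0.77 to -0.14.

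The promoters of 4 genes past the threshold are shown, Stat3 and Cxcl12 for their lowest ratios, and Cd36 and Cd96 because they hold letters that Sox factors bind. Each is the window of 250 bases before the gene's start on GRCm38.p6, from RefSeq, 5′ to 3′ on the gene's strand. Capitals mark the Sox core AACAAAG and the Stat element TTCNNNGAA, searched on both strands.
Stat3, chr11:100939541-100939790, minus strand: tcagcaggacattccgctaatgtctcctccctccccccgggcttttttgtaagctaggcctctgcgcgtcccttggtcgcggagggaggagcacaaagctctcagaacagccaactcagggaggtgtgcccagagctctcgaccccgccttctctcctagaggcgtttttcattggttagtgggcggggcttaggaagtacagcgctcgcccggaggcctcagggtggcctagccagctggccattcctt
Cxcl12, chr6:117168285-117168534, plus strand: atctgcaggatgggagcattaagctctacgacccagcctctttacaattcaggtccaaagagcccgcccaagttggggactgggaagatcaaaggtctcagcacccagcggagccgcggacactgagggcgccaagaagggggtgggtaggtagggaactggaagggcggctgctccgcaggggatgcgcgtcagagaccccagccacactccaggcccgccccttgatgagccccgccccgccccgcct
Cd36, chr5:17835897-17836146, minus strand: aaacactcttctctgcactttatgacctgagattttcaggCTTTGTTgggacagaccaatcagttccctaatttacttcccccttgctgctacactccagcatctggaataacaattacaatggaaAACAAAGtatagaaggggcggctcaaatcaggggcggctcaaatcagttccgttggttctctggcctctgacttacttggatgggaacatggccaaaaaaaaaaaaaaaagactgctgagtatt
Cd96, chr16:46120249-46120498, minus strand: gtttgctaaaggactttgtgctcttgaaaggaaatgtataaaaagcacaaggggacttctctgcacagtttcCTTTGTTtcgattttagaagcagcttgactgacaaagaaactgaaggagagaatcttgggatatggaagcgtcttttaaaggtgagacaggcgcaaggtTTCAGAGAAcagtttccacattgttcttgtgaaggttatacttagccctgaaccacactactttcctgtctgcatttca
Cd36 holds the Sox core at 2 places, and Cd96 holds it once beside 1 Stat element. The letters are not in the Stat3 and Cxcl12 windows. RefSeq windows were matched for 65 of the 93 genes. The Sox core was in 6 of them (9.23%, against 5.77% of 27025 genes) and in 2 of the 9 genes past the threshold with a window. The Stat element was in 7 (10.8%, against 8.13%), 1 of those 9 among them. The core of the interferon element, GAAA repeated after a gap of 2 bases, was in 4 (6.15%, against 3.46%) and in none of those 9. A match is a description of letters, not a site.

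Arrays 1 and 2 resembled each other more than they did arrays 3 to 6. Across probes, which are not independent replicates, Spearman's rho was 0.52 within the first set and ran from 0.44 to 0.58 within the second, whereas between sets it ran from 0.05 to 0.32. The labels of arrays 1 and 2 describe the RNA preparation and those of arrays 3 to 6 do not, and no label says what separates the sets. For all 14 probes past the threshold both sets had a mean on the same side of 0. It could not be otherwise, because each had the same sign on every array. Stat3 averaged -0.72 on arrays 3 to 6 and -0.91 on arrays 1 and 2, and Cxcl12 at MMC01H10 averaged -0.86 and -0.60. Over all 131 probes, 54 had set means on opposite sides. The share over all tested probes was not computed, so this count has no background. A limma test of the difference between sets, added after seeing the data, called 0 of the 131 (background 0.0%), with 23 at an unadjusted p under 0.05 (17.6%, against 15.4%).

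**Figure D4:**
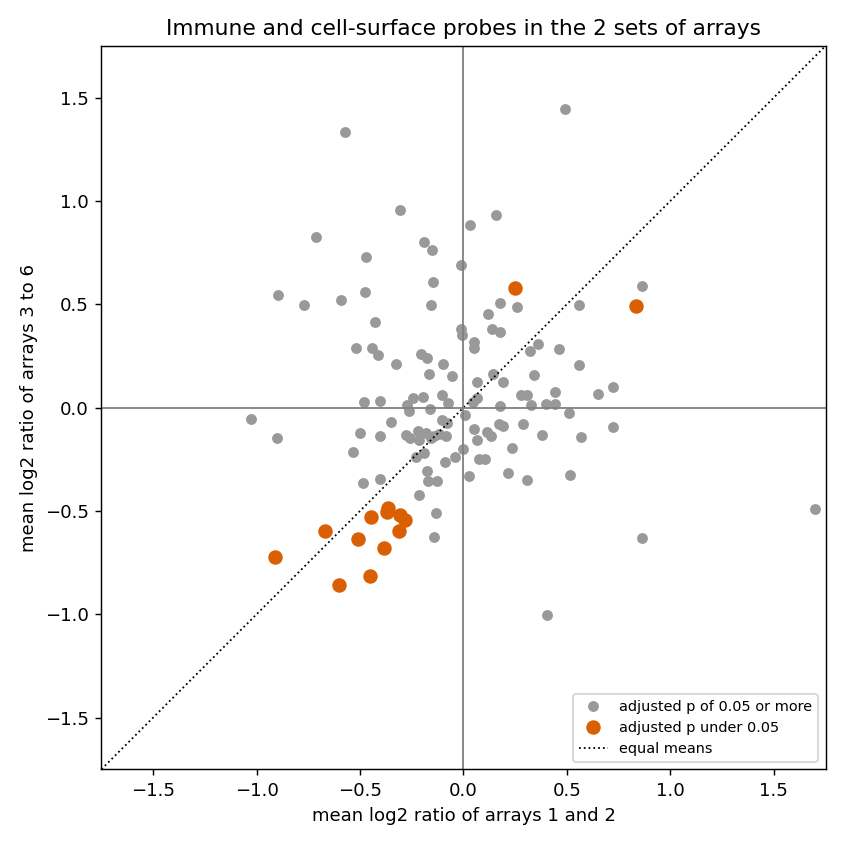
Mean log2 ratio of arrays 1 and 2 (x axis) against that of arrays 3 to 6 (y axis) for the tested member probes, with probes past the threshold in orange and a dotted line of equal means. The 14 orange points all lie where both means have the same sign, as they must, having the same sign on every array. The means differ in sign at 54 grey points (share over all probes not computed).

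The number of calls depended on the arrays used. Without array 1, 3, 4, 5 or 6, 0 member probes passed in limma. The share of all probes that passed was 0.0881%, 0.218%, 0.0537%, 0.0481% and 0.0622%. At an unadjusted p under 0.05 there were 40, 38, 34, 35 and 30 of the 130 or 131 members tested. The shares of all probes at that level were 24.8%, 24%, 23.3%, 22.7% and 22.4%. Without array 2, 15 passed (5.23% of all), among them 11 of the 14. In each of these 6 fits all 14 kept an unadjusted p under 0.05, with adjusted p from 0.0267 to 0.123. Their sign could not change, because it was the same on every array. The Stat3 mean stayed between -0.84 and -0.75. With arrays 3 to 6 alone 0 of 131 passed (0.0629% of all), with 49 at an unadjusted p under 0.05 (30.6% of all). With arrays 1 and 2 alone 0 of 131 passed (0.0% of all), with 17 at an unadjusted p under 0.05 (14.2% of all). The set of arrays as a term left 10 (3.27% of all), 9 of the 14 among them, the others being both Cd164 probes, Il10rb, Ifitm5 and Cd96. Array weights gave 25 (11.3%), scaling arrays to 1 spread gave 20 (8.41%), and removing probes of small whole-number ratios gave 17 (8.63%).

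Some markers of other cell types passed too. Over all genes, 5.0% had a probe past the threshold under 0 and 3.25% above 0. Each mean with an SD here is of the gene's probe with the smallest p. Of 17 liver genes, 11 were measured and 6 passed under 0, and the list median ran from -0.77 to -0.36 over the arrays. They were led by Afp at -2.06 ± 0.22, Ambp at -0.77 ± 0.10, Fgb at -1.12 ± 0.26 and Fgg at -1.14 ± 0.31. Afp passed at 3 of 4 probes, and the highest averaged 0.0059. Apoc3, named after its values were seen, averaged 0.36 and -0.096 at its 2 probes and did not pass. Of 19 endothelial genes, 9 were measured and 2 passed under 0, with list medians from -0.35 to -0.11. These were Lyve1 at -0.74 ± 0.11 and Ramp2 at -0.75 ± 0.21. Lyve1 passed at 1 of 2 probes, and the other averaged -1.05. Ramp2 passed at 2 of 3 probes, and the highest averaged 0.042. Sox17, named after its values were seen, averaged 0.35 and 0.47 at its 2 probes and did not pass. Of 36 leukocyte genes, 11 were measured, 4 of them members. Rac2 (-0.43 ± 0.16) and C1qa (-0.40 ± 0.18) passed under 0 and Cd53 (0.71 ± 0.12, n = 5) above 0, with list medians from -0.48 to -0.056. Rac2 passed at 1 of 2 probes, and the other averaged -0.29. C1qb, named after its value was seen, averaged 0.058 ± 0.16 and did not pass. Of 15 mesenchyme genes, 8 were measured and Sparc passed at -0.31 ± 0.08, with list medians from -0.035 to 0.30. Lum, named after its values were seen, averaged 1.01 and 0.25 at its 2 probes and did not pass. Of 15 erythroid genes, 6 were measured and Hba-a1 passed at 0.40 ± 0.19 at 1 of 17 probes, with list medians from -0.12 to 0.21. The probes of Hba-a1 averaged from -0.39 to 0.40. Hbb-y, named after its values were seen, averaged from -0.39 to 0.74 at its 3 probes and did not pass. None of 6 measured epithelial genes of 12 passed in limma, with list medians from -0.059 to 0.27. Nkx6-1 had the smallest p, at 0.39 ± 0.30 (adjusted p 0.0992). Sox9, named after its value was seen, lay on the other side with nearly the same p, at -0.48 ± 0.39 (adjusted p 0.101). The part of these cell types in the ratios of the members was not tested. The probes of Sox4 averaged -0.025 ± 0.25 and -0.091 ± 0.13 and did not pass, so they give no check of the labels, and whether they lie in the deleted part is not stated.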

How the data were processed

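The authors' deposited values are log2 ratios, 1 for each probe of a 2-channel array. The log base follows from the ceiling of 16.61, the log2 of 1e+05. Per the labels of arrays 1 and 2, total RNA was amplified linearly and labelled indirectly. No source used here gives background correction, normalization, dyes or ratio direction.

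Ceiling values, 40 to 257 per array, were set to missing, and each array was centred on its median. The 21247 probes with at least 4 values were fitted with limma 3.58.1 (R 4.3.3), intercept only, with eBayes, two-sided against 0. Benjamini-Hochberg adjustment ran over all of them, with a threshold of 0.05. The fit was tested on simulated data with 21247 probes and normal noise drawn separately for each array. It recovered 22.4% of 67, 65.7% of 67 and 83.3% of 66 probes changed by 0.5, 1 and 2 in log2. There were 8 false calls. The real arrays were correlated across probes, so these shares may not hold for them. A ratio counted as a quotient when it lay within 6e-04 in log2 of a quotient of whole numbers up to 20. Tables and promoter searches used Python 3.11.15, and figures used matplotlib 3.10.9. Precision is limited by how many arrays there are.

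The annotation gave 1 symbol to 18388 probes, several to 66 and none to 3434. All 134 member probes matched RefSeq by Entrez ID, with 0 symbols changed. Probes of a gene were kept apart. Named were all member probes past the threshold, the smallest p of each group without one, up to 5 same-sign probes furthest from 0 on each side, and 31 genes chosen by role, of which 12 had a tested probe and 19 were not analysed here. Up to 4 passing genes of each neighbouring list, or the one with the smallest p, were named too. Members, lists and tests were chosen with earlier results of these data known. Alternatives were other scalings and filters, array weights, other forms of the test, 1 value per gene, each set of arrays, and each array left out.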

Additional observations from a re-analysis of the deposited data

Results flagged for a closer look

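Among 30 named probes and 9 medians of the set and its groups, 1 had a single array set apart by more than Dixon's limit, and chance alone picks about 1 in 20. The Cxcr4 probe MMC01H08 stood at 3.768 on array 3, while the other arrays ran from -0.02 to 1.01.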

How the results depend on the processing

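The count of 14 probes past the threshold (12 under 0, 2 above 0, in 11 genes) became 25 (20, 5 and 19 genes) with array weights and 1 (1, 0 and 1 gene) against a log2 change of 0.2. With array weights, 15.3% of the members passed under 0 and 3.82% above 0, against 7.11% and 4.2% of all tested probes. Against a log2 change of 0.2, 0.174% of all tested probes passed. The count was 0 (0, 0 and 0 genes) with arrays 3 to 6 alone and with arrays 1 and 2 alone, where fewer arrays entered. With each array left out it ranged from 0 to 15 (under 0 from 0 to 13, above 0 from 0 to 2, genes from 0 to 12). Above 0 it was 4 without centring (background 4.0%) and 1 with the set of arrays as a term (1.38%). The median of the members became 0.1076 without centring and -0.0968 with arrays 1 and 2 alone, and ranged from -0.0219 to 0.0039 with each array left out.

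None of the 14 probes changed sign under the alternatives run. Leaving arrays out could not change it, because each had the same sign on every array. Of 594 values of named probes under the alternatives, 13 had another sign, all of them of probes that did not pass. Csf1r stood at 0.0435 with scaling to 1 spread, 0.0405 with quantile normalization, 0.0525 with array weights, 0.1158 with the set as a term, 0.8632 with arrays 1 and 2 alone, and from -0.6533 to 0.2409 with each array left out. Irf3 stood at -0.3247 with arrays 3 to 6 alone and from -0.2741 to 0.4834 with each array left out. Ifnar2 at ZA-00026H12 stood at -0.0262 and from -0.0196 to 0.2265. With arrays 1 and 2 alone, Cxcl12 at MMC01H09 stood at 0.0728 and Il6st at 0.0248. The cause was not tested. No paired analysis was possible because all 6 arrays form 1 group. Signal over background is unknown, so dim probes could not be set apart.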
